A study of Mus musculus with 8 samples.

Results

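The genes described here are 48 imprinted genes of the mouse that lie outside the *Dlk1*-*Dio3* locus, chosen by name from genes long known to be expressed mainly from the copy of a single parent. Members were the array probes whose RefSeq accession belongs to a listed gene, which gave 75 of the 55681 distinct probes on the array and 47 of the 20660 RefSeq genes with a probe. The listed gene *H19* was not analysed here. By the allele that is usually expressed, 22 of the 48 genes are paternally expressed and 23 maternally expressed, and in 3 (*Gnas*, *Blcap* and *Inpp5f*) the expressed allele depends on the transcript. A filter on dim probes kept 71 of the 75 probes and 45 of the 47 genes, namely 22 paternally expressed, 20 maternally expressed and all 3 of the last kind. *Slc22a3*, an organic cation transporter of the placenta, and *Kcnk9*, a potassium channel of the brain, did not pass and were well above background on 1 and 0 of the 8 arrays. The probe taken for each of the 45 tested genes was well above background on all 8 arrays.

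Imprinting is set in the germ line, where DNA methylation marks a control region on the chromosome of either the father or the mother, and the mark is kept through the reprogramming that follows fertilisation. Imprinted genes lie in clusters in which a non-coding RNA or an insulator often silences the other genes on the same chromosome, and many of them act on growth of the embryo and the placenta. EED is a core subunit of the Polycomb repressive complex PRC2, which methylates lysine 27 of histone H3. Polycomb takes part in silencing imprinted genes in the placenta, and for a few genes the maternal histone mark itself is the imprint. The arrays measured the RNA of both parental copies together, so a change in the level of a gene does not tell which copy it came from.

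RNA was measured in 8 whole embryos at embryonic day 8.5, each on 1 single-colour array, to compare offspring of fathers with reduced EED function with offspring of their heterozygous counterparts. All 8 embryos were heterozygous for the hypomorphic Eedl7Rn5-1989SB allele on a C57bl6/129 background (*Eed* hypo/wt) and had wild type mothers. The sire of 4 embryos carried only the hypomorphic allele (*Eed* hypo/hypo; these are called HOM fathers). The sire of the other 4 was heterozygous like the embryo itself (*Eed* hypo/wt, called HET fathers), and each group held 2 females and 2 males. The methods of the study name fewer sires than embryos for either group, and the labels do not say which embryos share a father, so the tests measure the spread between these embryos.

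Values are given as normalised log2 signal, in which 0 is the 75th percentile of the array, and a change is the mean of HOM father embryos minus the mean of HET father embryos on this log2 scale. Between 51.9% and 60.8% of spots were well above background on the 8 arrays, and no spot was saturated. The 4 arrays of each father group were on a slide of their own, so slide and father cannot be told apart in any father comparison. In whole-embryo RNA, fewer cells of a type and less RNA per cell cannot be told apart either. The labelled tissue was matched by its markers. All 10 tested markers of the embryo proper were expressed, with a summed level (log2 of their added signals) of 4.84 to 4.97 in HOM father embryos and 4.80 to 5.07 in HET father embryos. Markers of visceral yolk sac endoderm (10 of 10 tested) were also present at summed levels of 8.99 to 9.32 and 9.20 to 9.27, and those of primitive erythroid cells (7 of 7) at 9.28 to 9.65 and 9.64 to 9.70, so RNA typical of yolk sac and blood was present in both groups. In each of the first 2 of these lists 1 marker was called lower in embryos of HOM fathers (*Tbx6* and *Apoa1*), where 10.6% of all genes were called lower.

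The members' start sites can be compared by sequence, because methylation at imprinted loci falls on the dinucleotide CG. Windows of 250 bases before the start were taken from RefSeq on assembly GRCm38.p6. No window of *Impact* was used among those of the members. The members' windows that were used covered 59 start sites of 38 members. They held a median of 10 CG, compared with 6 over all 32851 windows, and the observed to expected ratio of CG exceeded 0.6 in 50.85% of the members' windows and 33.95% of all. The letters TGCCGC, read on either strand, are those bound by the imprint maintaining protein ZFP57. They were found in 16.95% of the members' windows and 8.68% of all windows. Some genes gave several windows, and overlapping windows of *Mest* held the same letters. The letters contain a CG, of which the members' windows held more, and the difference between these shares was not tested. A match is only a match of letters, and no binding was measured. The 4 windows shown belong to the pair of called genes of the *Kcnq1* cluster and to *Blcap* with *Nnat*, which lies inside it and is transcribed in the opposite direction. Capitals mark each CG, and all are written 5′ to 3′ on the strand of the gene.

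The window of *Kcnq1ot1*, at chr7:143296548-143296797 on the reverse strand, held 5 CG.
Kcnq1ot1: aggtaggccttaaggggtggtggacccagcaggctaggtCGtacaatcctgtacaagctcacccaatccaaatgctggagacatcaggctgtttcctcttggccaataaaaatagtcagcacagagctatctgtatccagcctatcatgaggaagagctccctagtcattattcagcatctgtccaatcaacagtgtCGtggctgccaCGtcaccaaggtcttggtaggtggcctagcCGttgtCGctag

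The window of *Tssc4*, at chr7:143069118-143069367 on the forward strand, held 17 CG and thus more than the median of either set.
Tssc4: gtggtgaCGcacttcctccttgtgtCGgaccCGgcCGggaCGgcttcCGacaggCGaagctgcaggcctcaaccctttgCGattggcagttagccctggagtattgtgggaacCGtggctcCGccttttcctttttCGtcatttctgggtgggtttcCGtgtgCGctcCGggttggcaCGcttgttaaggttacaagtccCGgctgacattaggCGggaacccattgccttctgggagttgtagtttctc

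The windows of *Blcap*, at chr2:157566362-157566611 on the reverse strand, and of *Nnat*, at chr2:157559828-157560077 on the forward strand, each held 12 CG. None of the 4 windows held TGCCGC on either strand.
Blcap: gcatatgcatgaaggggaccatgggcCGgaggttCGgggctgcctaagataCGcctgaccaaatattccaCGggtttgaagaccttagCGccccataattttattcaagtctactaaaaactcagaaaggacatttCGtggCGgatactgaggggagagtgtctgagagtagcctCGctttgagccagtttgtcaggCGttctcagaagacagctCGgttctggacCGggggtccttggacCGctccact
Nnat: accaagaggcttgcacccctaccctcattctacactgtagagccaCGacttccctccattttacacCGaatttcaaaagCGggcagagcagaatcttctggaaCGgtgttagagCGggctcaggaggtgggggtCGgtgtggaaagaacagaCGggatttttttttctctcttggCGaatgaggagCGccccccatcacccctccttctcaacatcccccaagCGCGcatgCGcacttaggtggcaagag

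The share of imprinted genes called by father was not far from that of all genes, and the difference between these shares was not tested. The members also varied more within groups, with a median residual SD of 0.198 beside 0.108 over RefSeq genes. None of the 45 tested genes and none of their 71 probes passed the limits of the study (limma adjusted p below 0.01 and at least 2-fold), which 1.27% of all tested probes and 0.514% of RefSeq genes did. At an adjusted p below 0.05 without a fold limit, 5 of 45 genes (11.1%) were called, compared with 21.0% of all 29718 tested probes and 17.6% of 14592 RefSeq genes taken by their brightest probe. Of the 5, 1 was higher in embryos of HOM fathers (*Blcap*) and 4 were lower (*Kcnq1ot1*, *Ppp1r9a*, *Tssc4* and *Trappc9*), where 7.02% of genes were called higher and 10.6% lower (12.3% and 8.69% of probes). An unadjusted p below 0.05 was reached by 12 of 45 members, 34.8% of probes and 31.7% of genes. The arrays of both groups did not overlap for 8 of 45 members, 27.1% of probes and 24.8% of genes. Besides the 5 called genes these were *Gnas*, *Klf14* and *Sgce*, named after their values were seen. With quantile normalisation the count was again 1 higher and 4 lower, where 6.89% of genes were called higher and 8.5% lower. With each array scaled to its median it was 0 higher and 20 lower, where 3.92% of genes were called higher and 41.9% lower. Under that scaling the median over every tested probe was -0.21, from -0.02.

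**Figure D1:**
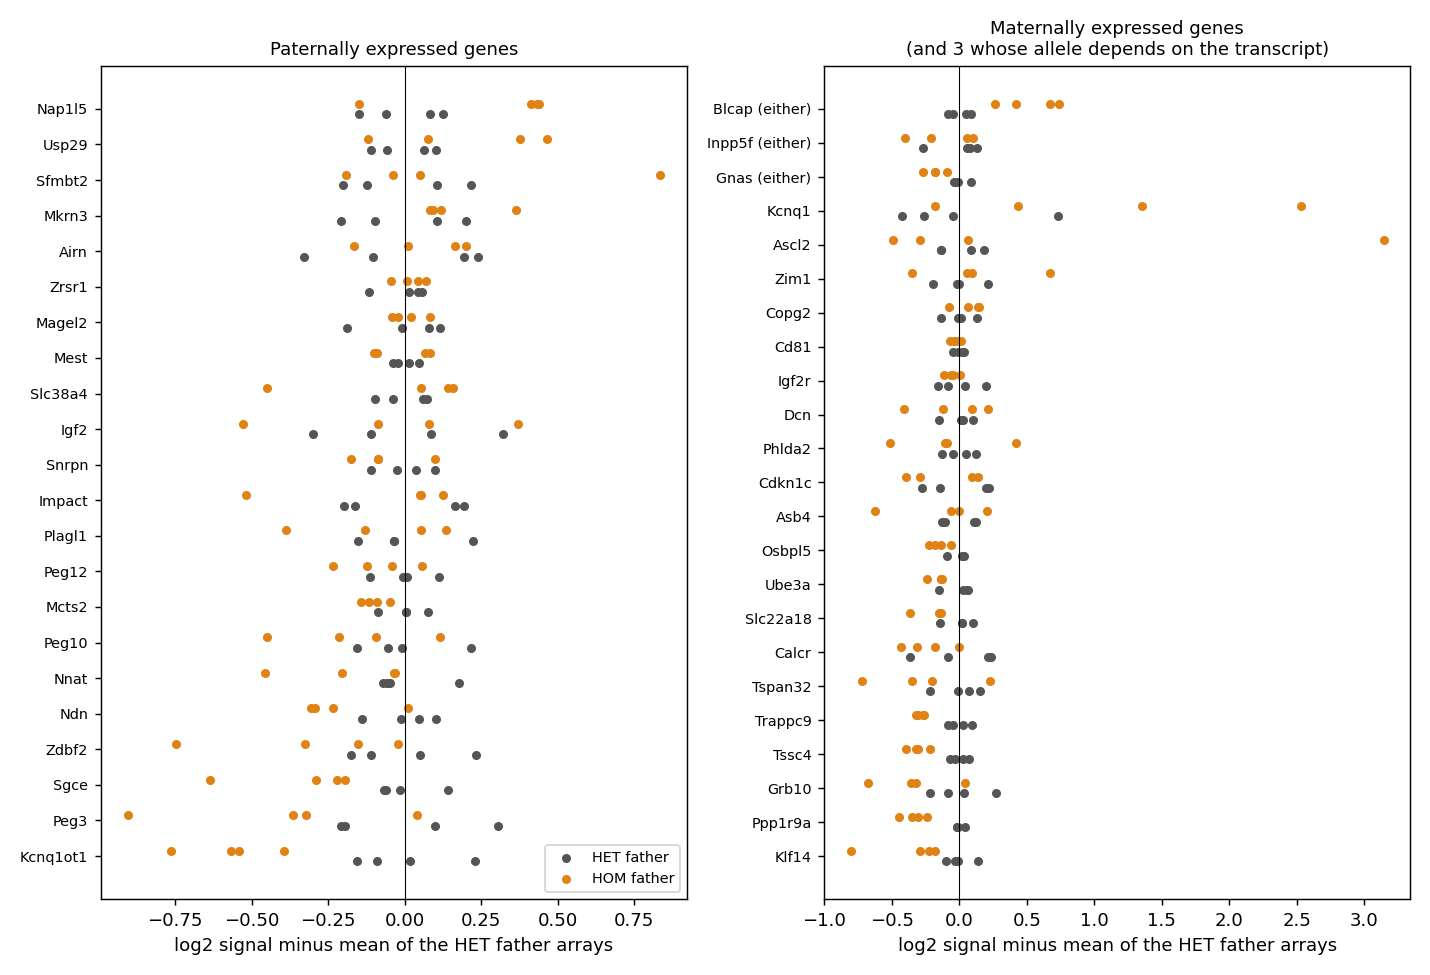
Normalised log2 signal of each array minus the mean of the 4 HET father arrays, for the brightest tested probe of each of 45 imprinted genes, with 1 point per embryo (orange, HOM father; grey, HET father) and genes sorted by their change (the 3 genes of variable allele on top). In most genes the 2 colours overlap, and single embryos reach far to the right for *Ascl2* and *Kcnq1* on the wider scale of the second panel.

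By expressed allele, 1 of 22 paternally expressed genes (*Kcnq1ot1*) and 3 of 20 maternally expressed genes (*Ppp1r9a*, *Tssc4* and *Trappc9*) were called, all of them lower. The median change was -0.07 for paternally expressed genes (15 of 22 negative) and -0.13 for maternally expressed genes (16 of 20 negative), beside -0.05 for all genes, of which 61.4% were negative. Leaving out HOM father replicate 1 brought the maternal median to -0.079. With quantile normalisation the paternal median was -0.0040 and the maternal median -0.10, beside -0.041 for all genes, so that the paternal median lay above that of all genes and not below it. With median scaling they were -0.26 and -0.33, beside -0.24 for all genes. No test of these medians was made. By the tissue in which their imprinting is best known (a grouping made by hand), the called genes were 2 of 8 placental genes (*Tssc4* and *Ppp1r9a*), 2 of 5 brain genes (*Blcap* and *Trappc9*) and 1 of 32 broadly imprinted genes. Of all genes 17.6% were called, and these small groups were not tested against each other.

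**Figure D2:**
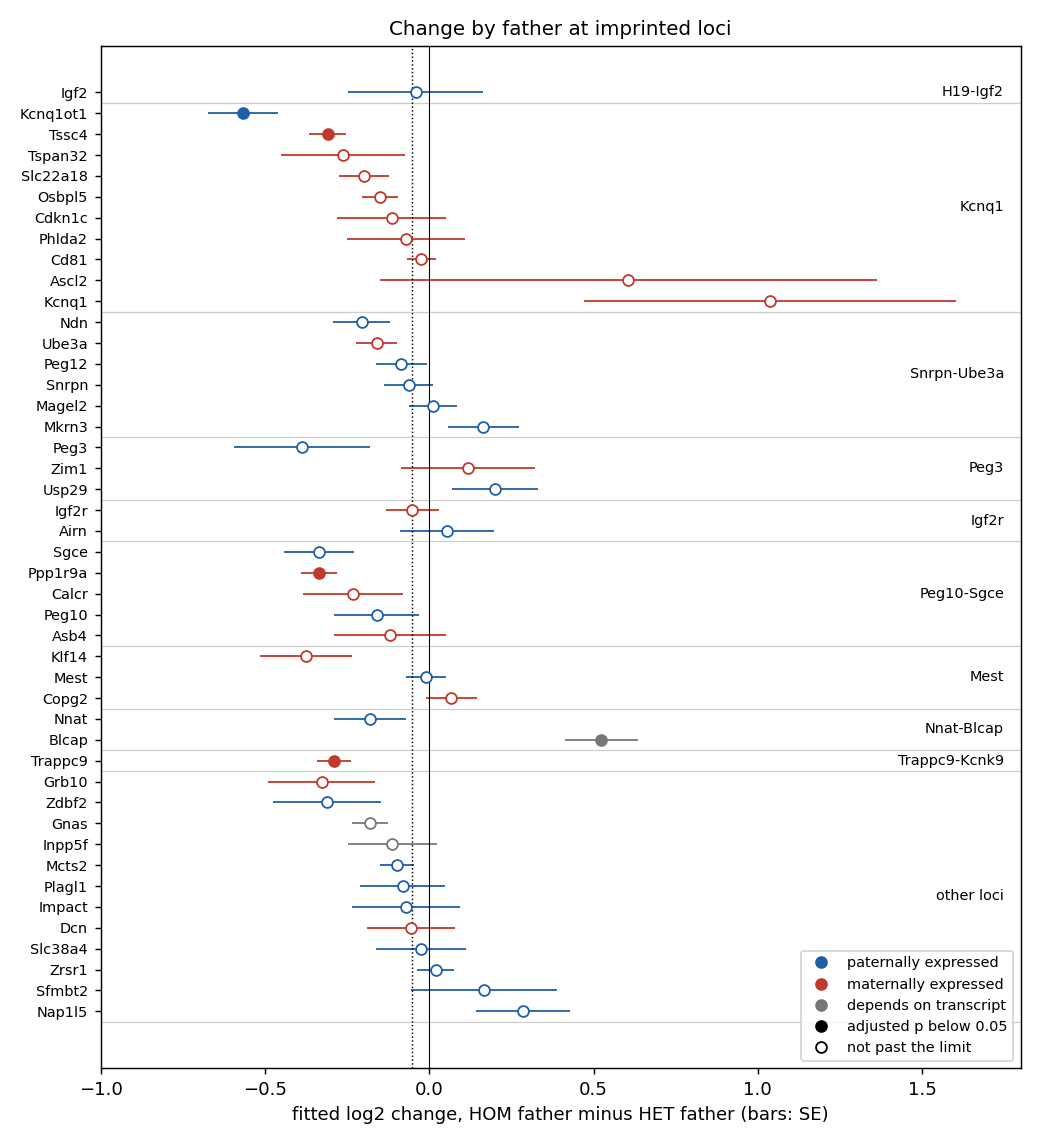
Fitted change by father on the log2 scale (HOM father minus HET father; bars, standard error) for 45 imprinted genes grouped by locus, coloured by expressed allele, with filled points for genes at an adjusted p below 0.05 and a dotted line at the median of all RefSeq genes (-0.05). The 5 filled points lie at 4 loci, and the widest bars belong to *Ascl2* and *Kcnq1*.

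The *Kcnq1* cluster on distal chromosome 7 held 2 of the 5 called genes among its 10 tested members (20%), beside 17.6% of all genes. *Kcnq1ot1* is the long non-coding RNA that is transcribed from the paternal chromosome and silences its neighbours there. Its brighter probe was at -0.51, -0.87, -0.65 and -0.68 in embryos of HOM fathers and at -0.27, -0.10, -0.20 and 0.12 in embryos of HET fathers. All 4 HOM father embryos lay below all 4 HET father embryos, with a change of -0.57 (SE 0.11, 1.48-fold lower, limma adjusted p = 0.00923). The second probe of the same RNA was dimmer and was at a change of 0.22 (limma adjusted p = 0.257), and the mean of both probes had a change of -0.17 and was not called (limma adjusted p = 0.310).

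*Tssc4*, a maternally expressed gene for a spliceosome assembly protein, was at 2.82, 3.002, 2.90 and 2.92 in embryos of HOM fathers and at 3.29, 3.15, 3.25 and 3.19 in embryos of HET fathers. The groups did not overlap, and the change was -0.31 (SE 0.06, 1.24-fold lower, limma adjusted p = 0.00812). With normexp background correction it was -0.13 and no longer called (limma adjusted p = 0.133). It was also not called with the replicate number or the slide position as a block. For *Kcnq1ot1* the lower level rests on the brighter probe, since the dimmer probe had the opposite sign.

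The growth regulators of the cluster were not called. *Cdkn1c* encodes p57, an inhibitor of the cell cycle, and was at 5.20, 5.30, 5.69 and 5.73 in embryos of HOM fathers and 5.79, 5.81, 5.32 and 5.45 in embryos of HET fathers. These ranges overlapped, with a change of -0.11 (SE 0.17, limma adjusted p = 0.666). *Phlda2*, which limits the growth of the placenta, was at 2.98, 3.91, 3.39 and 3.40 and 3.36, 3.61, 3.44 and 3.54. Both the lowest and the highest embryo were of HOM fathers, and the change was -0.07 (SE 0.18, limma adjusted p = 0.817). It was -0.23 without HOM father replicate 2, and turned to 0.077 without HOM father replicate 1, 0.011 with normexp and 0.035 with slide position as a block. Of the remaining members *Slc22a18*, a transporter, *Osbpl5*, an oxysterol-binding protein, and the tetraspanins *Tspan32* and *Cd81* lay between -0.26 and -0.02, with adjusted p between 0.0923 and 0.731, and *Ascl2* and *Kcnq1* are described with the single embryos.

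**Figure D3:**
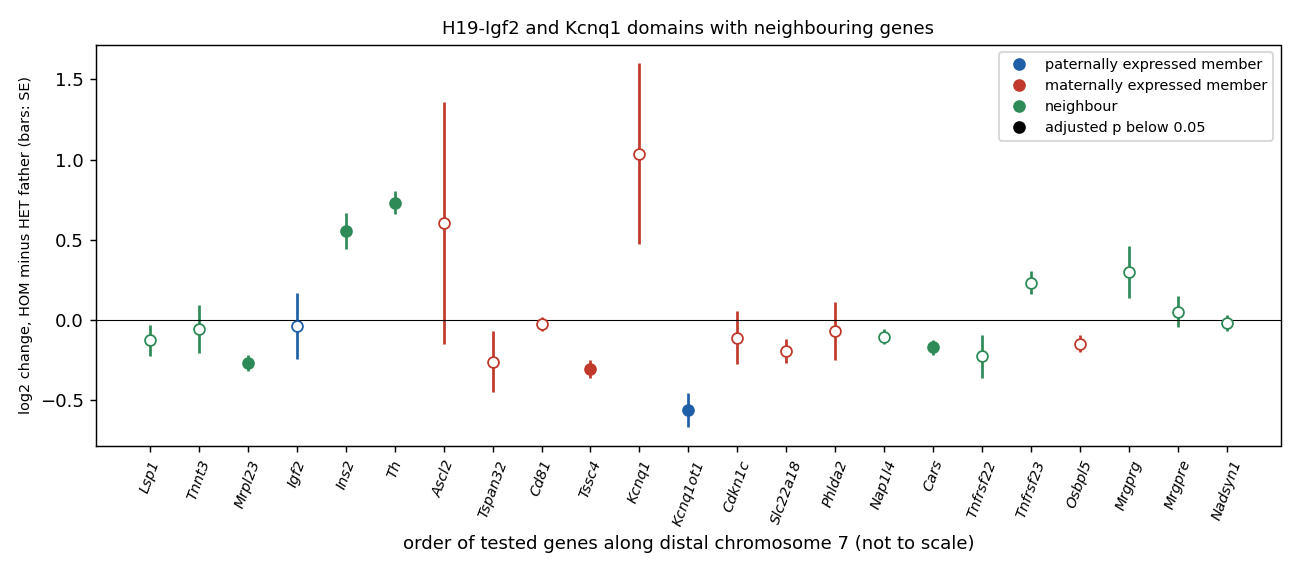
Fitted change by father on the log2 scale (bars, standard error) for the tested imprinted genes and their tested neighbours of the *H19*-*Igf2* and *Kcnq1* domains, in the order of the RefSeq gene table and not to scale, with filled points for an adjusted p below 0.05. *Kcnq1ot1* is the lowest point at -0.57, and of 4 called neighbours *Ins2* (0.55) and *Th* (0.73) are higher and *Mrpl23* (-0.27) and *Cars* (-0.17) lower.

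No difference was called for the genes of the insulin-like growth factor axis. *Igf2*, the paternally expressed growth factor, was at 3.13, 2.69, 3.30 and 3.59 in embryos of HOM fathers and 3.31, 3.11, 2.92 and 3.54 in embryos of HET fathers. The HOM father embryos spread over and beyond the HET father range, with a change of -0.04 (SE 0.21, limma adjusted p = 0.914). The sign turned without HOM father replicate 2 (0.12) and without HET father replicate 4 (0.066), with quantile normalisation (0.014) and with slide position as a block (0.0032). Its receptor for clearance, *Igf2r*, was at 3.74, 3.86, 3.80 and 3.81 and 3.77, 4.05, 3.69 and 3.90. HET father replicate 2 was the highest, and the change was -0.05 (SE 0.08, limma adjusted p = 0.695). *Airn*, the paternal RNA that runs antisense to *Igf2r* and silences it, was at 1.34, 1.17, 1.50 and 1.53 and 1.00, 1.57, 1.23 and 1.52, with a change of 0.05 (SE 0.14, limma adjusted p = 0.830). The spread of *Airn* within both groups exceeded the difference between them.

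Other regulators of growth gave larger but variable differences. *Grb10*, an adaptor that restrains the insulin receptor, was at 1.75, 1.44, 1.79 and 2.16 in embryos of HOM fathers and 2.38, 2.15, 1.89 and 2.03 in embryos of HET fathers. Only HOM father replicate 4 reached the HET father range, yet the change of -0.33 was not called (SE 0.16, limma adjusted p = 0.198). *Plagl1*, a zinc finger transcription factor, was at 4.96, 4.71, 5.15 and 5.23 and 4.94, 5.06, 5.06 and 5.32, with a change of -0.08 (SE 0.13, limma adjusted p = 0.695). *Peg3*, a paternally expressed zinc finger protein, was at 3.08, 2.50, 3.04 and 3.44 and 3.21, 3.50, 3.20 and 3.71. HOM father replicate 2 was lowest, and the change of -0.39 (SE 0.21, limma adjusted p = 0.225) went to -0.22 without that embryo. Its neighbours *Usp29*, a ubiquitin protease, and *Zim1*, another zinc finger gene, were at 0.20 and 0.12 and were not called.

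*Mest* is a paternally expressed hydrolase. It was at 6.87, 6.86, 7.03 and 7.05 in embryos of HOM fathers and 7.01, 6.94, 6.93 and 6.98 in embryos of HET fathers, a change of -0.01 (SE 0.06, limma adjusted p = 0.930). The HET father embryos lay within the range of the HOM father embryos. The maternally expressed genes beside it were *Copg2*, a coat protein of vesicles, with a change of 0.07, and the transcription factor *Klf14*. *Klf14* was at -0.69, -0.07, -0.11 and -0.18 in embryos of HOM fathers and 0.08, 0.25, 0.02 and 0.10 in embryos of HET fathers. Its groups did not overlap, but its change of -0.37 (SE 0.14) missed the threshold (limma adjusted p = 0.0980).

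All 5 tested genes of the *Peg10*-*Sgce* cluster on chromosome 6 had a negative change, except *Asb4* at 0.019 under normexp background correction, 0.082 with slide position as a block and 0.046 without HOM father replicate 1, and 1 of them was called. Of all genes 61.4% were negative and 17.6% were called. *Ppp1r9a*, which encodes neurabin, a regulator of protein phosphatase 1, was at 1.04, 0.94, 1.15 and 1.08 in embryos of HOM fathers and 1.37, 1.43, 1.38 and 1.37 in embryos of HET fathers. The HET father embryos were almost equal and all above the HOM father embryos, and the change was -0.33 (SE 0.05, 1.26-fold lower, limma adjusted p = 0.00521). A dimmer probe was at -0.24 and was not called (limma adjusted p = 0.230), nor was the mean of both probes. *Sgce*, the paternally expressed epsilon-sarcoglycan, was at 2.20, 2.55, 2.62 and 2.64 and 2.78, 2.82, 2.77 and 2.98. Its groups did not overlap either, with a change of -0.34 (SE 0.11, limma adjusted p = 0.0603). *Peg10*, derived from a retrotransposon and needed for the placenta, was at -0.22, -0.57, -0.34 and -0.01 and -0.18, -0.13, -0.28 and 0.09, with a change of -0.16 (SE 0.13, limma adjusted p = 0.422). *Calcr*, the calcitonin receptor, and *Asb4*, an ankyrin repeat protein, were at -0.23 and -0.12 and were not called.

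In the *Snrpn*-*Ube3a* cluster, whose human counterpart is deleted in Prader-Willi and Angelman syndromes, 0 of 6 genes were called by limma, with 2 of 6 at an unadjusted p below 0.05. Of all genes 17.6% were called and 31.7% had such an unadjusted p. *Snrpn*, a protein of the spliceosome, was at 1.86, 2.14, 1.95 and 1.95 in embryos of HOM fathers and 1.93, 2.07, 2.14 and 2.01 in embryos of HET fathers. Its groups overlapped fully, and the change was -0.06 (SE 0.07, limma adjusted p = 0.592). *Ndn* and *Ube3a*, the paternally expressed necdin and the maternally expressed ubiquitin ligase, were at -0.21 and -0.16 (not called, limma adjusted p of 0.138 and 0.111). *Peg12*, the MAGE family gene *Magel2* and the makorin gene *Mkrn3* lay between -0.09 and 0.16.

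*Blcap* was the only called member that was higher in embryos of HOM fathers. It encodes a small membrane protein, and its intron holds the paternally expressed gene *Nnat* (neuronatin). *Blcap* was at 1.61, 2.09, 2.02 and 1.77 in embryos of HOM fathers and at 1.39, 1.26, 1.43 and 1.30 in embryos of HET fathers. The lowest HOM father embryo lay above the highest HET father embryo, and the change was 0.52 (SE 0.11, 1.44-fold higher, limma adjusted p = 0.0147). With median scaling it was 0.33 and missed the threshold (limma adjusted p = 0.0520), as it did without a filter on dim probes (limma adjusted p = 0.0520) and with the replicate number as a block (limma adjusted p = 0.0501). *Nnat* itself was at 3.21, 2.96, 3.38 and 3.38 and 3.34, 3.37, 3.36 and 3.59, with a change of -0.18 (SE 0.11, limma adjusted p = 0.280) and overlapping groups. The pair thus differed in sign, and the difference between the 2 genes was not tested.

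*Trappc9*, a subunit of a vesicle tethering complex that is imprinted in the brain, was at 2.15, 2.12, 2.10 and 2.16 in embryos of HOM fathers and 2.34, 2.38, 2.45 and 2.52 in embryos of HET fathers. The HOM father embryos were tightly grouped below the others, with a change of -0.29 (SE 0.05, 1.22-fold lower, limma adjusted p = 0.00768). A dimmer probe of another *Trappc9* transcript was at 0.33 and not called (limma adjusted p = 0.382), and the mean of both probes was at 0.017 (limma adjusted p = 0.941), so the direction rests on the brighter probe. The genes *Kcnq1ot1*, *Tssc4*, *Ppp1r9a*, *Blcap* and *Trappc9* were each called in 8 of 8 fits that left out 1 array, and 0 of 5 were called with slide position as a block.

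*Gnas*, which encodes the stimulatory G protein alpha subunit, was at 6.17, 6.08, 6.17 and 6.26 in embryos of HOM fathers and 6.32, 6.35, 6.31 and 6.44 in embryos of HET fathers. All HOM father embryos lay below the HET father embryos, but the change of -0.18 (SE 0.06) was not called (limma adjusted p = 0.0553). A probe of an alternative *Gnas* transcript was at -0.07. Another was well above background only in HOM father replicate 4 and was not tested. The remaining genes at loci of their own were not called. *Zdbf2*, a zinc finger protein, was at -0.31 and *Nap1l5*, of the nucleosome assembly family, at 0.28. *Impact*, an inhibitor of the kinase GCN2, *Inpp5f*, a phosphatase of phosphoinositides, the proteoglycan decorin (*Dcn*), *Mcts2* and *Zrsr1* lay between -0.11 and 0.02. *Mcts2* and *Zrsr1* are retrocopies of other genes, whose RNA could add to their probes.

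*Sfmbt2* and *Slc38a4* are of a kind of their own, since their imprint is carried by maternal histone methylation laid down by PRC2. *Sfmbt2*, itself a Polycomb group protein, was at 0.86, 1.65, 0.62 and 0.77 in embryos of HOM fathers and 0.61, 1.03, 0.92 and 0.69 in embryos of HET fathers. The highest value was in HOM father replicate 2, and the change of 0.17 (SE 0.22, limma adjusted p = 0.641) went to -0.06 without that embryo. *Slc38a4*, an amino acid transporter, was at 1.91, 2.52, 2.50 and 2.41 and 2.42, 2.32, 2.27 and 2.44. HOM father replicate 1 was the lowest, and the change was -0.02 (SE 0.14, limma adjusted p = 0.923). A further 7 genes (*Gab1*, *Smoc1*, *Jade1*, *Etv6*, *Runx1*, *Otx2* and *Bbx*) are known for this kind of imprint in early mouse embryos. Whether they carried it in the embryos measured here was not examined. Limma called 0 of the 7 by father and 0 had an unadjusted p below 0.05, beside 17.6% and 31.7% of all genes. Their changes lay between -0.26 and 0.06.

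For genes with several tested probes, the probes sometimes disagreed. *Peg12*, of the Frat family, had a bright probe with a change of -0.09 that was not called and a dim probe with a change of -0.53 that was (limma adjusted p = 0.0139). With that probe, 6 of 71 member probes were called, 1 higher and 5 lower. Probes also disagreed in sign, without a call, for *Impact* (-0.07 and 0.44), *Peg3* (-0.39 and 0.12), *Copg2* (0.07 and -0.05), *Mkrn3* (0.16 and -0.09), *Mest* (-0.0099, -0.20 and 0.040), *Plagl1* (between -0.08 and 0.14) and *Snrpn* (between -0.09 and 0.04). The probes of a gene can stand for different transcripts.

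Single embryos set apart some placental genes. The genes of this paragraph beyond *Sfmbt2* and *Phlda2* were chosen after their values were seen. *Ascl2*, a maternally expressed factor of the trophoblast, was at -1.77, 1.67, -1.98 and -1.42 in embryos of HOM fathers and -1.29, -1.40, -1.62 and -1.62 in embryos of HET fathers. HOM father replicate 2 alone was high, and the change of 0.61 (SE 0.76, limma adjusted p = 0.612) was -0.24 without it (limma adjusted p = 0.294). The same embryo had the highest *Sfmbt2* and *Phlda2*. *Dnmt3l*, a cofactor of DNA methylation that is also expressed in trophoblast, was at -0.70 in that embryo and between -3.98 and -3.50 in the other 7. Its change of 0.93 went to 0.21 without that embryo. *Elf5*, a trophoblast factor, was at -2.30 there and at -2.08 in HET father replicate 3, while the other embryos lay between -3.42 and -3.14.

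*Kcnq1*, a potassium channel subunit whose gene holds *Kcnq1ot1*, was at -3.17, -1.63, -0.46 and -2.55 in embryos of HOM fathers and -3.04, -2.26, -3.25 and -3.41 in embryos of HET fathers. The highest value was in HOM father replicate 3, and the change of 1.04 (SE 0.57, limma adjusted p = 0.237) was 0.54 without it (limma adjusted p = 0.426). *Prl8a2*, a marker of maternal decidua, was at 0.29, 4.14, 4.45 and 1.30 in embryos of HOM fathers and at 1.85, 1.88, -1.42 and -3.99 in embryos of HET fathers. *Prl8a2* was highest in HOM father replicates 2 and 3, as was *Kcnq1*. *Ascl2* was high in replicate 2 (1.67) but at its lowest in replicate 3 (-1.98). Over the 7 decidua markers the summed level ran from 2.82 to 4.85 in HOM father embryos and from 2.70 to 3.43 in HET father embryos. Over the 9 trophoblast markers with a probe it ran from 3.42 to 4.19 and from 4.09 to 4.83. Such sums follow the brightest markers of a list. In HET father replicate 4, with a decidua sum of 2.70, *Hand2* was at 1.49, *Alpl* at 1.22 and *Prl8a2* at -3.99. Its trophoblast sum of 4.83 was mostly *Gcm1*, at 4.61. The sums are thus not a measure of the amount of decidua or trophoblast. Of 6 tested trophoblast markers 2 were called higher (*Prl3b1* and *Psg17*) and 1 lower (*Gcm1*), where 7.02% of genes were called higher and 10.6% lower. *Psg17* was dim (-4.97 to -4.01) and well above background on 4 arrays of HOM fathers but on 2 of 4 of HET fathers. The markers *Tpbpa* and *Ctsq* were not well above background on any array. *Prl3d1*, *Prl3b1*, *Gcm1*, *Elf5* and *Plac1* were well above background on all 4 arrays of each group. *Prl3d1* was at -1.05, 1.97, 1.12 and 0.39 in embryos of HOM fathers and at 0.44, 0.03, -2.39 and -3.16 in embryos of HET fathers. It was not called (limma adjusted p = 0.208). The part of decidua or trophoblast in the changes of the members was not tested.

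**Figure D4:**
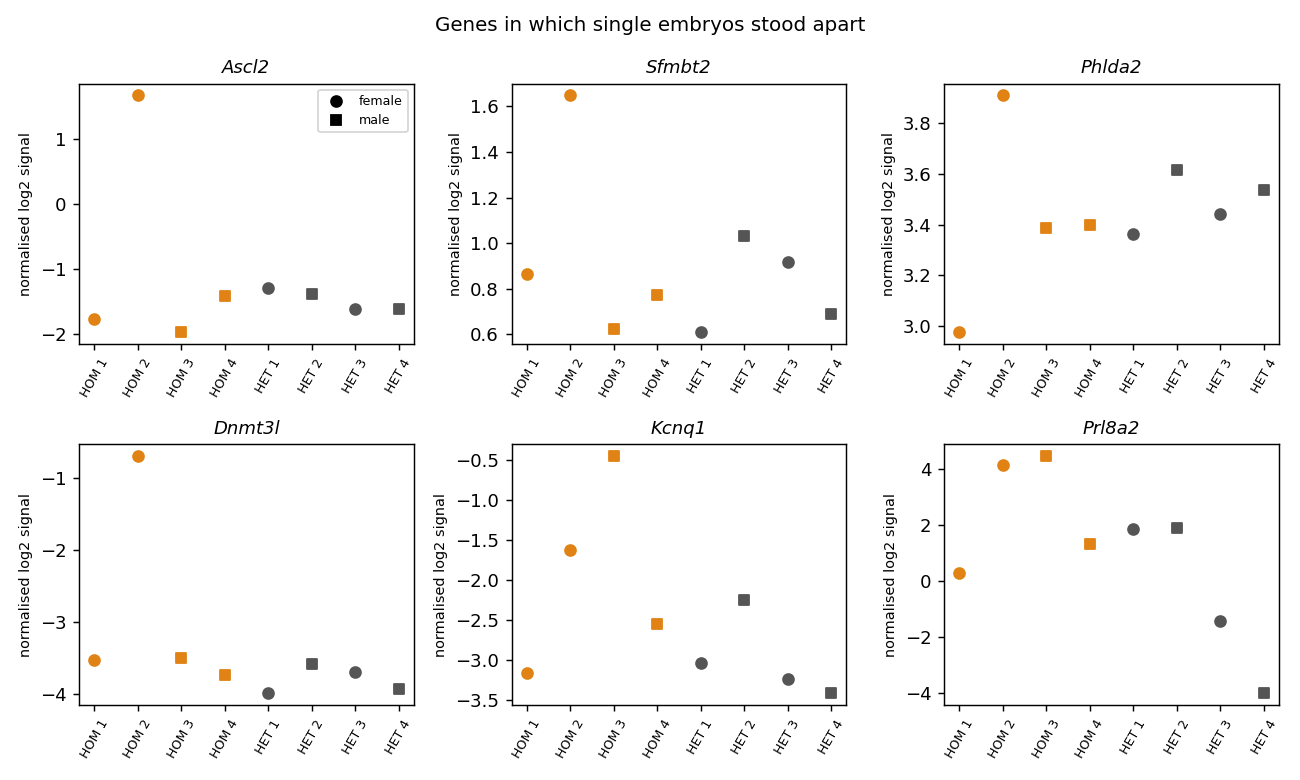
Normalised log2 signal by embryo (orange, HOM father; grey, HET father; circles, females; squares, males) for the imprinted genes *Ascl2*, *Sfmbt2*, *Phlda2* and *Kcnq1*, for *Dnmt3l* and for the decidua marker *Prl8a2*, each on its own vertical scale. HOM father replicate 2 is the highest for *Ascl2* (1.67), *Sfmbt2*, *Phlda2* and *Dnmt3l*, and HOM father replicate 3 for *Kcnq1* and *Prl8a2*.

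The spread between embryos of the same group was described next, without a test. The median residual SD was 0.198 over the 45 members, compared with 0.108 over RefSeq genes and 0.129 over all tested probes. It was 0.182 for paternally and 0.212 for maternally expressed genes. The deviation of each embryo from the mean of its father group was therefore taken for each gene. For the paternally expressed genes the median deviation was -0.04, -0.17, -0.06 and -0.05 in the 4 females (HOM father replicates 1 and 2, HET father replicates 1 and 3). It was 0.11, 0.11, -0.01 and 0.10 in the 4 males (HOM father replicates 3 and 4, HET father replicates 2 and 4). All 4 females lay below all 4 males, which is a description over genes of the same embryos with no test, while the medians of the maternally expressed genes lay between -0.07 and 0.04 with no such order. Over RefSeq genes the medians lay between -0.02 and 0.03. HOM father replicate 2, the embryo with high *Ascl2*, had the lowest paternal median.

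**Figure D5:**
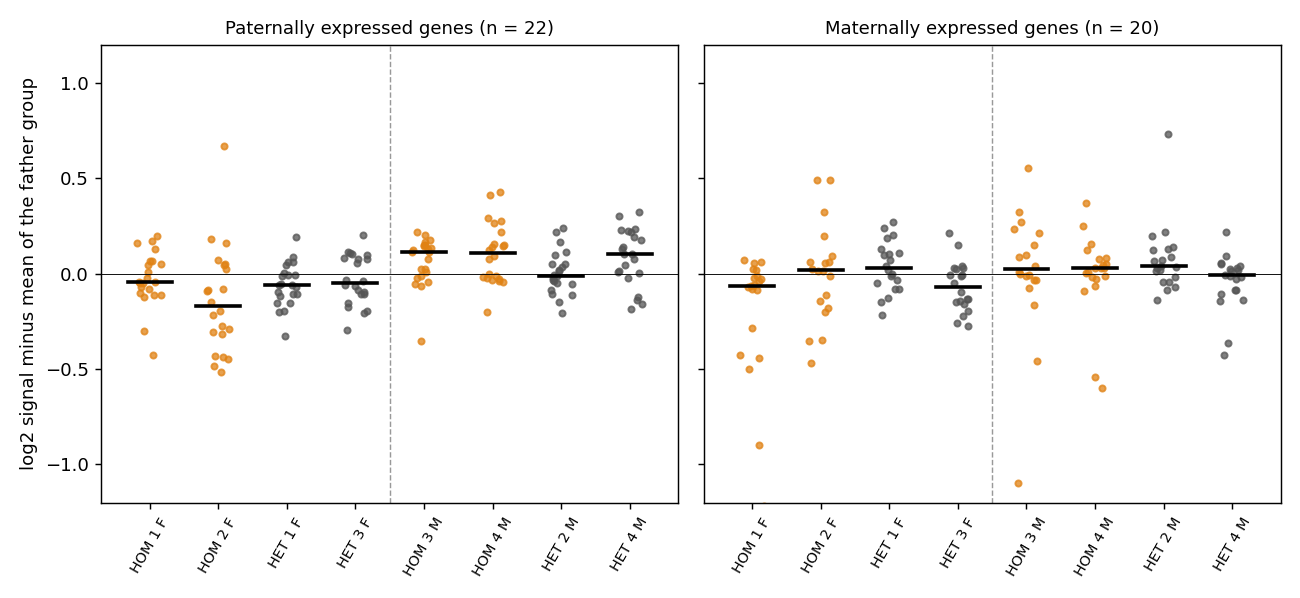
Deviation of each imprinted gene from the mean of its father group (log2 scale, points) in each of the 8 embryos, with the median as a bar, for 22 paternally expressed and 20 maternally expressed genes; a dashed line separates females (F) from males (M), and 3 points lie beyond the axis. The paternal medians run from -0.17 to -0.04 in females and from -0.01 to 0.11 in males.

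By sex, no single imprinted gene was called. With father as a covariate limma called 0 of 45 members at an adjusted p below 0.05 (lowest adjusted p 0.603), where 0.121% of all tested probes and 0.0822% of genes were called. An unadjusted p below 0.05 was reached by 4 of 45, where 5.22% of probes and 4.78% of genes reached it. These were *Peg3*, *Airn*, *Plagl1* and *Nnat*, all paternally expressed and lower in females, with female minus male differences of -0.43, -0.35, -0.27 and -0.21. The dimmer probe of *Airn* had a difference of 0.0043 (limma unadjusted p = 0.951), so its difference rests on the brighter probe. The dimmer probe of *Nnat* was at -0.22. The median of the paternally expressed genes was -0.14, with 16 of 22 lower in females, and that of the maternally expressed genes -0.05, with 13 of 20 lower. Over all genes it was 0.02, with 42.5% lower in females. Under median scaling the paternal median was -0.05 and the maternal median 0.04, with genes overall at 0.11. The interaction of father and sex was called for 0 of 45 members by limma (lowest adjusted p 0.732, with 2 at an unadjusted p below 0.05), where 0.0639% of all probes and 0.0274% of genes were called and 4.52% and 4.57% had such an unadjusted p.

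The genes beside the clusters were examined in the same way. Of 73 protein-coding genes that lie within a cluster or next to it and are not members, 53 were tested and 9 (17.0%) were called, 4 higher and 5 lower, beside 17.6% of all genes. The aminophospholipid transporter gene *Atp10a*, beside *Ube3a*, was well above background on all 4 arrays of HET fathers but on 1 of 4 of HOM fathers, and so passed the filter through the group in which it was higher. It was at -5.15, -4.82, -5.30 and -5.35 in embryos of HOM fathers and -4.02, -4.10, -3.50 and -4.44 in embryos of HET fathers. The groups did not overlap, but 3 of 4 HOM father values were not well above background, and the fitted difference of -1.14 (limma adjusted p = 0.00769), which counts among the 9 calls, is given as a description only. *Th*, tyrosine hydroxylase, is the rate-limiting enzyme of catecholamine synthesis and lies between *Ins2* and *Ascl2*. It was at -0.86, -0.80, -0.90 and -0.73 and -1.49, -1.71, -1.52 and -1.49, and rose by 0.73 (SE 0.07, limma adjusted p = 0.000530). The olfactory receptor gene *Olfr1350*, beside the *Peg3* cluster, rose by 0.75 (limma adjusted p = 0.00106). *Ins2*, an insulin gene next to *Igf2*, was chosen after its values were seen and rose by 0.55 (limma adjusted p = 0.0123). The flanking genes gave 7 of the 9 calls among 39 tested, and the genes within clusters 2 of 14.

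A list called imprint maintenance genes here was also examined. Besides genes whose proteins keep imprints it holds other genes of DNA methylation and chromatin, among them *Dnmt3l*, *Tet1* and *Tet3*. Of 21 listed genes 20 were tested, and 8 (40.0%) were called, 4 higher and 4 lower, beside 17.6% of all genes (7.02% higher and 10.6% lower), with a median of -0.02 beside -0.05. *Arid4b*, a chromatin factor, was at 0.04, 0.00, 0.08 and 0.07 in embryos of HOM fathers and -0.33, -0.42, -0.57 and -0.34 in embryos of HET fathers. It rose by 0.46 (SE 0.06, limma adjusted p = 0.00247). *Ehmt1*, a histone H3 lysine 9 methyltransferase, rose by 0.42 (limma adjusted p = 0.0118), and *Tet3*, which oxidises methylcytosine, rose by 0.41 (limma adjusted p = 0.0290). *Setdb1* was also higher, while *Tet1*, *Dnmt1*, the maintenance methyltransferase, its partner *Uhrf1* and *Trim28*, the cofactor of ZFP57, had changes of -0.34 to -0.21. None of these reached 2-fold. *Zfp57* was at 0.22 and *Zfp445* at -0.22, neither of them called (limma adjusted p of 0.0709 and 0.209). The count of 8 was sensitive to single arrays, and it was 2, 4 and 5 without HOM father replicates 1, 3 and 4 and 5, 3 and 3 without HET father replicates 2, 3 and 4. In these fits at most 11.6% of all genes were called.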

How the data were processed

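RNA of 8 embryos was measured on Agilent SurePrint G3 Mouse GE arrays. Per the labels, 0.2 µg of total RNA was labelled with Cy3, and the authors extracted spot intensity with Agilent Feature Extraction 11.0.1.1 (background-subtracted and detrended, not normalised between arrays). The deposited flags (well above background, saturated, outlier) are other values of 0 or 1 and served as filters. The deposited series table gives the same intensity within 0.497% and served as an alternative.

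From these, log2 signal minus the 75th percentile of each array was computed over spots without outlier flags, and spots of a probe were averaged. Tested probes had to exceed background clearly and reach the 20th percentile on 4 or more arrays, which kept 29718 probes (53.4%). Accessions were matched to a RefSeq gene table of GRCm38.p6 (48.9% of probes). Comparisons were fitted over all tested probes with limma 3.58.1 in R 4.3.3 (lmFit and eBayes, two-sided, Benjamini-Hochberg), by father without covariates, by sex with father, and with their interaction. The limits were those of the study and an adjusted p below 0.05 alone. A gene takes the value of its tested probe with the highest mean over the 8 arrays. Fits and counts were tested on simulated data.

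Members, lists and tests were chosen with earlier results of these data known. Values in every embryo are given for 14 long-studied members and for called members, and of other lists for up to 3 called genes with the largest change; further genes were chosen after their values were seen. The alternatives were other scalings, background corrections (normexp used median spot signals), filters, covariates, blocks, probes and input values, and leaving out each array.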

Additional observations from a re-analysis of the deposited data

Results flagged for a closer look

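In 11 of 94 groups of 4 embryos, 1 for each member gene and father, a single embryo lay far from the other 3 by Dixon's test. Chance flags about 1 in 20 groups, or 4.7 of these. In HOM father replicate 2, *Impact* was at 3.36 (others 3.93 to 4.00), *Ascl2* at 1.67 (others -1.98 to -1.42) and *Nap1l5* at -3.62 (others -3.06 to -3.03). In HOM father replicate 3, *Slc22a18* was at 1.43 (others 1.64 to 1.65), *Mkrn3* at -1.03 (others -1.31 to -1.27) and *Ube3a* at 0.41 (others 0.51 to 0.52). In HET father replicate 4, *Osbpl5* was at 1.28 (others 1.39 to 1.41) and *Nnat* at 3.59 (others 3.34 to 3.37). The remaining values are of genes below the filter. *Slc22a3* was at -7.95 in HOM father replicate 1 (others -6.96 to -6.94) and at -4.84 in HET father replicate 1 (others -7.01 to -6.73), the sole array on which it was well above background. In HOM father replicate 1 the undetected markers *Tpbpa* (-7.98) and *Ctsq* (-7.97) were as low, so that value lies at the floor of the array. *Kcnk9* was at -5.97 in HOM father replicate 1 (others -6.97 to -6.93).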

How the results depend on the processing

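No member passed the limits of the study, and none was called by sex or by the interaction, in any setting that was run. The 5 members at an adjusted p below 0.05 became 20 with median scaling, 3 with the mean of the probes of a gene and 0 with slide position as a block, where 45.8%, 16.3% and 2.66% of all genes were called, from 17.6%. *Trappc9* had the opposite sign with the mean of its probes (0.017). Under median scaling the paternal median was -0.26 and the maternal median -0.33, against -0.24 for all genes. Leaving out single arrays gave paternal medians from -0.083 to -0.046 and maternal medians from -0.17 to -0.079. Of the 40 members that were not called, 21 changed sign in at least 1 setting and 19 in none.

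The 8 imprint maintenance genes became 4 with quantile normalisation, 5 with normexp, with the identifier number as a random block and with the mean of probes, 2 without a filter, 0 with the slide position, and 2 to 8 without single arrays. The 9 neighbours became 21 with median scaling (45.8% of genes), 4 without a filter (4.33%) and 2 with the slide position (2.66%). The 0 genes of the maternal histone mark became 2 with median scaling (45.8% of genes). The causes of these shifts were not tested.

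Deviations of embryos with the same replicate number correlated at 0.189, -0.086, -0.132 and 0.146 across probes. Embryos numbered 1 and 4 had the same sex in both father groups (positive values), and those numbered 2 and 3 did not (negative values). These values thus cannot tell whether the numbers mark pairs. The paper describes littermate pairs of HOM and HET fathers, and the labels do not name their offspring. With the number as a replicate block, 3 members (without *Tssc4* and *Blcap*) and 2 imprint maintenance genes were called, beside 7.5% of all genes. *Blcap* was also lost without a filter (limma adjusted p = 0.0520). The interaction could not be fitted with the slide position as a block, for lack of residual degrees of freedom, and was not run with a replicate block or covariate. The 4 embryos a group, dim second probes and the single slide of each group limit precision.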
